A study of Arabidopsis thaliana with 50 samples.

Results

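The contrast described here sets the apical leaf parts of an Arabidopsis thaliana double mutant, pp2a-b'γζ (called b'γζ), against those of the single mutant pp2a-b'γ (called b'γ). Both lines are mutated in B'γ, a regulatory subunit of protein phosphatase 2A (PP2A), and b'γζ also in the subunit B'ζ, so the contrast holds the B'γ lesion constant and adds the loss of B'ζ. Each line was sampled as 5 pools, which makes 10 of the 50 libraries of the study, and each pool held the apical parts of 7 fully expanded rosette leaves. All plants were in the Col-0 background, were 7 weeks old and had 8 h of light per day. According to the labels, b'γ leaves were yellowing and contained dead tissue in the apical part, while the basal part looked free of symptoms. The 3 other lines were wild type, a double mutant of b'γ with sid2, and b'γ with a P35S:PP2A-B'γ transgene (the complemented line). The labels call each pool a biological replicate. They do not say from how many independent lines of each genotype the plants came.

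For each of the 18231 genes in the authors' deposited table, the difference was computed as the deposited log2 fold change of b'γζ against wild type minus that of b'γ against wild type, so that wild type cancels. A positive difference means a higher transcript level in b'γζ than in b'γ. Genes were called higher or lower when the difference was at least 1 in size, which is 2-fold. Genes that "rose" or "fell" also passed a test with an adjusted p under 0.05. This test, named the largest-error test, used the largest error that the authors' p-values allow for that gene. It assumes that these p-values come from an analysis of variance of genotype and leaf part on the same log values as the fold changes. Its p is a bound drawn from all 50 libraries (40 residual degrees of freedom) and not an exact test of 5 pools against 5. It takes 1 residual variance per gene for all groups, so a larger spread in the yellowing b'γ apices than elsewhere is not covered by the bound. The deposited table holds no values per library, so the standard error (SE) of each difference is a range from the smallest to the largest value allowed, and no SD between pools can be given. The depth of the libraries is unknown. Only genes whose genotype p passed the authors' correction are listed, so each share is a share of listed genes.

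Protein phosphatase 2A is a serine/threonine phosphatase built from a scaffold, a catalytic subunit and 1 of several exchangeable B subunits, which direct it to its substrates. The Arabidopsis B' family has several members, and B'γ is known as a negative regulator of salicylic acid dependent defence and of premature leaf yellowing. Leaf senescence breaks down chlorophyll and protein and exports the nitrogen, and it is driven in part by NAC and WRKY transcription factors. In bulk tissue such as these pools, fewer cells of a type and less RNA per cell cannot be told apart.

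The transcripts of the lesioned genes were examined first. B'ζ (AT3G21650; TAIR10.1, minus strand of chromosome 3, 7621569 to 7624133) had values of -0.40 in b'γ and -2.59 in b'γζ per the authors' deposited table. It fell by 2.20 in b'γζ against b'γ (SE 0.11 to 0.13). B'γ itself (AT4G15415; plus strand of chromosome 4, 8816922 to 8819783) stood at -0.69 in b'γ and -0.46 in b'γζ per the authors' deposited table, a difference of 0.24 (SE 0.05 to 0.06, adjusted p = 0.00634), which is under the 2-fold limit. Transcript reduction at B'γ was thus modest in both lines, and in b'γζ the larger reduction was at B'ζ. Of 22 PP2A subunit genes on the list, 20 were in the table, and B'ζ alone passed both criteria. B'ε was higher, at -1.31 in b'γ and -0.24 in b'γζ per the authors' deposited table, but its difference of 1.07 (SE 0.17 to 0.48) had an adjusted p of 0.155. The other 18 subunits, B'γ included, lay within 2-fold, from -0.68 for the scaffold subunit PP2AA2 to 0.31 for B'θ.

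Across the table, 818 genes rose in b'γζ against b'γ and 1130 fell, which is 4.49% and 6.20% of the 18231 listed genes. By size alone, 2520 genes (13.8%) were at least 2-fold higher and 2640 (14.5%) at least 2-fold lower, and the median difference over all listed genes was -0.01. These shares over all listed genes are the ones to set beside each list share given below. The genes that fell had a median value of 2.66 in b'γ and 0.02 in b'γζ per the authors' deposited table, and those that rose had medians of -1.58 and -0.03. Of the 1130 that fell, 995 were at least 2-fold above wild type in b'γ and 972 were within 2-fold of it in b'γζ, and of the 818 that rose, 655 were at least 2-fold below it in b'γ and 708 were within 2-fold of it in b'γζ. The genes were chosen by the difference of these values, so the counts only describe them. The same genes had medians of 0.07 (fell) and 0.17 (rose) in b'γ sid2, and of 0.14 and -0.06 in complemented plants, in comparisons that share the wild-type pools. Set against those lines with the same test, b'γζ had far fewer called genes. Against the complemented line 73 rose (0.40%) and 10 fell (0.0549%), against b'γ sid2 124 rose (0.68%) and 67 fell (0.368%), and against wild type 214 rose (1.17%) and 118 fell (0.647%).

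**Figure D1:**
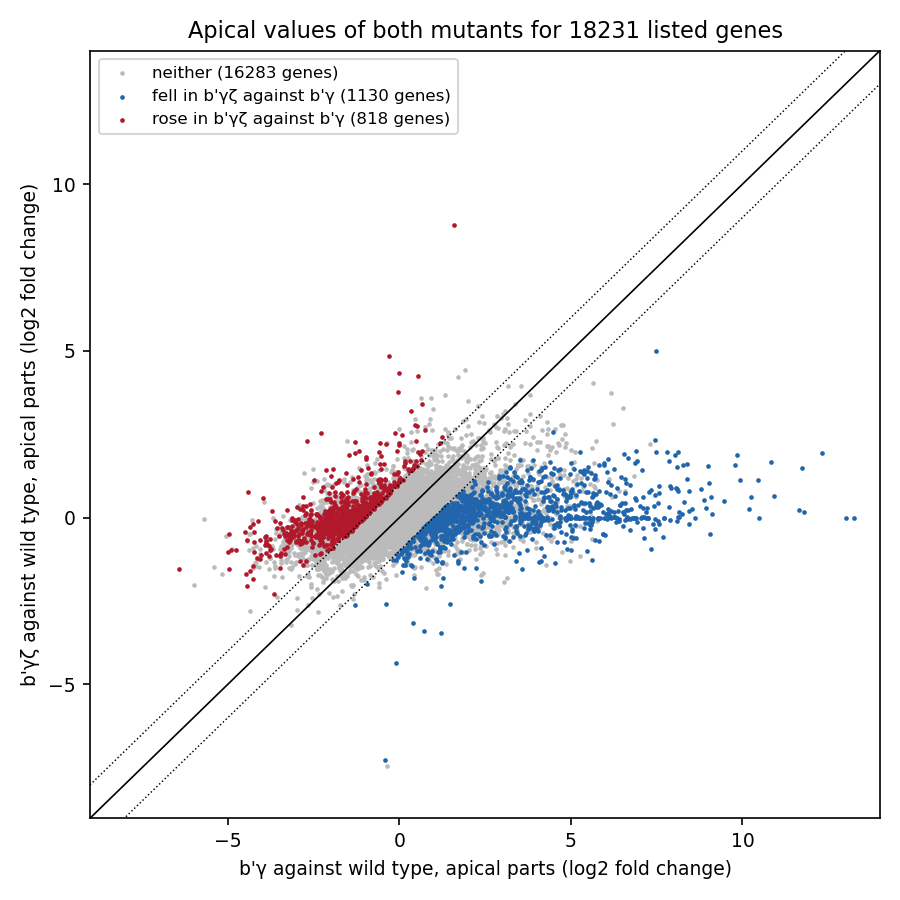
Each point is 1 listed gene, with its log2 fold change against apical wild type in b'γ on the x axis and in b'γζ on the y axis. The solid line marks equal values and the dotted lines a 2-fold difference. The 1130 genes that fell (blue) extend along the x axis to 13.24 in b'γ while most stay near 0 in b'γζ, and the 818 that rose (red) lie mostly left of 0.

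The plot of both lines' values shows that the falls were longer than the rises: the median difference was -2.42 among genes that fell and 1.57 among genes that rose. The largest falls were those of transcripts that stood far above wild type in b'γ. The α-dioxygenase DIOX1 fell by 13.24 and the senescence protease SAG12 fell by 13.04, and both had the lowest value of 2 or more lines in b'γζ, so these falls are measured down to the authors' floor. Other falls of this size were those of the β-glucosidase DIN2 (-11.62), the Kunitz-type trypsin inhibitor KTI1 (-11.42), the polygalacturonase ADPG2 (-10.48, at the floor) and the berberine bridge enzyme family gene AT1G26390 (-10.37). CYP82C2, a cytochrome P450 of indole cyanogenic synthesis, fell by 10.25 and the osmotin-like gene OSM34 fell by 9.31. DIN2, KTI1 and OSM34 are not marked as at the floor. They stood at 0.0 in b'γ sid2 in the authors' deposited table, level with wild type, a tie that the mark does not count. Their falls may thus be limited by the floor as well. The largest rise, 7.19, was that of a transposable element gene, AT5G35935, which had 1.59 in b'γ, 8.78 in b'γζ, 8.72 in b'γ sid2 and 8.88 in complemented plants by the authors' deposited table, so b'γ was the line that stood low among the mutants. Next came the flavonol regulator MYB111 (5.21), the transcription factor DDF1 (5.13), the phloem protein family gene PP2-A5 (4.98), the acyltransferase family gene AT1G65450 (4.87) and the transcription factor ERF025 (4.83).

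Line differences in the called genes often depended on the leaf part. The authors' corrected p for the interaction of genotype and leaf part was under 0.05 for 42.4% of all listed genes, 57.2% of those that rose and 61.2% of those that fell. Genes past 2-fold that did not pass the test had this interaction as often or more often, at 63.6% for higher and 68.4% for lower ones. Their largest allowed SE was wide, with a median of 0.97 for higher and 1.55 for lower genes, beside 0.42 over all listed genes. By construction the allowed error widens where lines differ in 1 leaf part alone, so a gene can miss the test at a large difference.

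**Figure D2:**
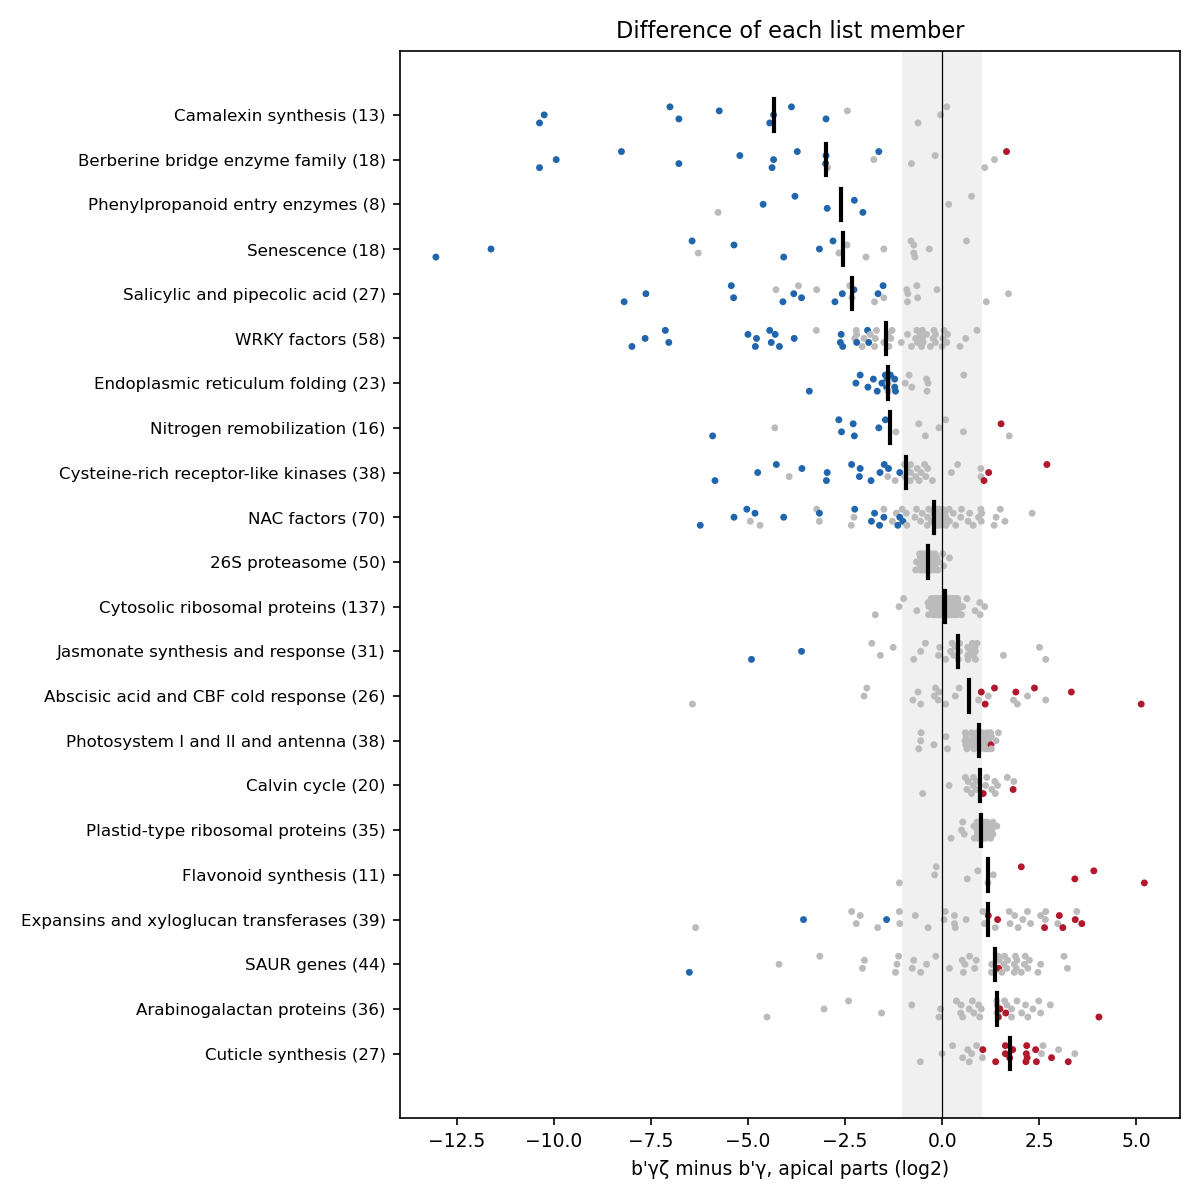
Each point is 1 listed gene of the named list (number of genes in parentheses), placed by its difference of b'γζ minus b'γ in log2 units; points are spread vertically for visibility only. Blue points fell, red points rose, grey points did neither, black bars are list medians and the grey band is within 2-fold. Medians run from -4.34 for camalexin synthesis to 1.74 for cuticle synthesis.

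Cuticle genes were the list with the highest median difference among the pathway lists plotted by list. Epidermal cells make the cuticle from cutin, a polyester of ω-hydroxy fatty acids, and from waxes derived from very long chain fatty acids. Of 27 listed genes, 19 were higher and none lower, 14 rose, and the median difference was 1.74, from medians of -1.78 in b'γ to -0.18 in b'γζ per the authors' deposited table. Over all listed genes the matching shares are 13.8% higher and 4.49% rose.

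Of the genes that activate and elongate fatty acids, 4 are named here that rose. KCS1, a 3-ketoacyl-CoA synthase that extends wax and cutin precursors, stood at -1.99 in b'γ and 1.26 in b'γζ per the authors' deposited table and rose by 3.25 (SE 0.28 to 0.63, adjusted p = 0.000238). LACS2, the acyl-CoA synthetase that supplies cutin synthesis, rose by 2.41 (SE 0.19 to 0.53). FDH, a ketoacyl-CoA synthase of the epidermis, rose by 1.74 (SE 0.09 to 0.28), and CER2, which acts with such synthases on the longest chains, by 2.17 (SE 0.19 to 0.33). CER6, the main elongase of stem wax, was within 2-fold at 0.70, and the acyl-CoA synthetase LACS1 had the lowest difference on the list, -0.56.

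The cutin oxidation and assembly steps moved in the same direction. The ω-hydroxylases CYP86A4, CYP86A2 and CYP86A8 rose by 2.43, 2.19 and 1.82, and the in-chain hydroxylase CYP77A6 by 1.63. The glycerol-3-phosphate acyltransferase GPAT4 rose by 1.63, and its close relative GPAT8 had a difference of 2.56 (SE 0.25 to 1.12) that did not pass. GPAT6, which serves mainly flowers, was at 0.27. BDG1, an epidermal hydrolase needed for cutin, rose by 2.18.

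Export and regulation completed the list. The lipid transfer protein LTPG1 rose by 2.82 (SE 0.22 to 0.46), and the transporters ABCG11 and CER5 rose by 1.38 and 1.05. The transcription factor MYB16, an activator of cuticle genes, rose by 2.16, while its relative MYB106 differed by 0.76. Among wax genes, the alkane-forming CER1 had -4.07 in b'γ and -1.08 in b'γζ per the authors' deposited table and the wax ester synthase WSD1 had -1.37 and 1.23. Their differences of 3.0 and 2.60 did not pass the test. SHN3, an AP2 factor of the same pathway, had the largest difference on the list, 3.42, with an allowed SE of 0.43 to 1.84.

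The level of epidermis markers is a value to set beside this. Of 7 epidermis and trichome markers, 6 were listed, with a median difference of 1.11, and 3 were higher. FDH, CER1 and CER6 are on both lists. Of the rest, ATML1, a homeodomain factor that specifies the epidermis, rose by 1.51 (SE 0.10 to 0.27), while the trichome factor GL2 differed by 0.14 and TTG1 by -0.56. The guard cell genes FAMA, HT1, MYB60 and SLAC1 differed by -0.04 to 0.39, and the guard cell potassium channel KAT1 fell by 1.96. The part of epidermal cell content in the cuticle values was not tested.

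**Figure D3:**
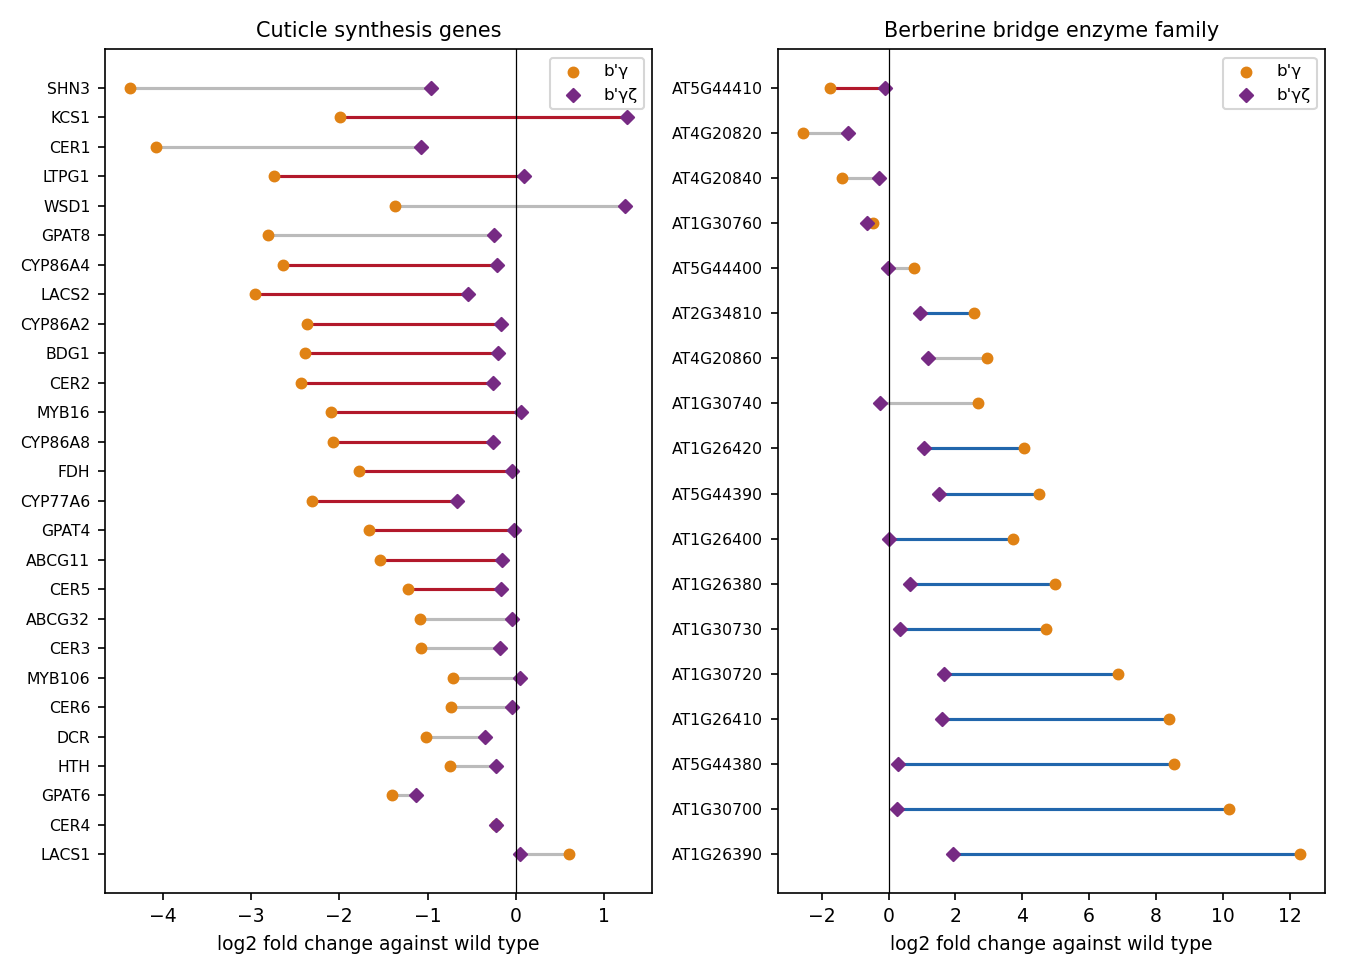
Log2 fold changes against apical wild type of the 27 listed cuticle genes (left) and the 18 listed berberine bridge enzyme family genes (right), with circles for b'γ and diamonds for b'γζ. Connecting lines are red for genes that rose, blue for genes that fell and grey for the rest; in b'γζ most cuticle genes lie within 1 log2 unit of wild type, and the enzyme family lies far lower than in b'γ.

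The berberine bridge enzyme family gave falls of a size seen on few lists. These secreted flavoproteins oxidize a range of small molecules, among them oligosaccharides from the cell wall, monolignols and indole compounds, and many of the genes sit in tandem clusters. Of 18 listed genes, 13 were lower and 11 fell (14.5% and 6.20% over all listed genes), 3 were higher and 1 rose, and the median difference was -3.0. AT1G26390 stood at 12.32 in b'γ and 1.94 in b'γζ per the authors' deposited table and fell by 10.37 (SE 0.81 to 1.12, adjusted p = 8.12e-09). AT1G30700 went from 10.19 to 0.25 there and fell by 9.94, and AT5G44380 fell by 8.26. In the cluster from AT1G26380 to AT1G26420 all 5 genes fell, with differences from -10.37 to -2.99, AT1G26400 down to the floor. The neighbouring AT1G30720 and AT1G30730 fell by 5.21 and 4.38, while AT1G30760 differed by -0.18. The exception was AT5G44410, which rose by 1.66 (SE 0.12 to 0.40), although AT5G44380 and AT5G44390, neighbours on chromosome 5, fell (differences of -8.26 and -3.0). Copies within these clusters are similar in sequence, so reads may be shared between them.

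Receptor kinases and transcription factors of defence followed. Cysteine-rich receptor-like kinases (CRKs) carry an extracellular pair of DUF26 domains, and many are induced by salicylic acid, pathogens or reactive oxygen. Of 38 listed CRKs, 17 were lower and 14 fell, 4 were higher and 3 rose, with a median difference of -0.93. That is 44.7% lower and 36.8% that fell, beside 14.5% and 6.20% of all listed genes, and 10.5% higher and 7.89% that rose, beside 13.8% and 4.49%. CRK32 had 6.58 in b'γ and 0.73 in b'γζ per the authors' deposited table and fell by 5.85 (SE 0.36 to 0.67, adjusted p = 2.88e-08). The adjacent genes CRK36, CRK37 and CRK38 fell (differences of -2.11, -4.27 and -4.75). The chromosome 4 cluster around AT4G23200 was mixed: CRK7, CRK23, CRK20, CRK13, CRK6, CRK8 and CRK18 fell by 1.49 to 3.61, CRK14 and CRK16 differed by -0.45 and -0.42, and CRK10 rose by 1.08. CRK42, which was at -2.60 in b'γ and 0.09 in b'γζ per the authors' deposited table, rose by 2.70 (SE 0.20 to 0.78), and CRK41 rose by 1.2.

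WRKY factors bind the W-box (TTGACC or TTGACT), a short element common upstream of defence genes. Of 58 listed WRKY genes, 34 were lower and 18 fell, none was higher or rose, and the median difference was -1.44. WRKY75, a promoter of leaf senescence, went from 9.02 in b'γ to 1.03 in b'γζ per the authors' deposited table and fell by 7.99 (SE 0.74 to 1.07). WRKY72, WRKY61 and WRKY31 fell (differences of -7.65, -7.13 and -7.04), to values between -0.11 and 0.03 in b'γζ per the authors' deposited table. WRKY53, another senescence regulator, did not follow, with 1.24 and 1.70 there and a difference of 0.46, and WRKY22 and WRKY30 were also above wild type in both lines and differed by 0.05 and 0.00. NAC factors were lower more often than higher. Of 70 listed, 24 were lower and 14 fell, 7 were higher and none rose, and the median difference was -0.20. The shares that were lower and that fell were above the 14.5% and 6.20% over all listed genes. The shares that were higher and that rose were below the 13.8% and 4.49% over all listed genes. NAP, ORE1 and JUB1, regulators of senescence, fell (differences of -5.36, -4.08 and -3.16), as did NAC003 and NAC047 (-6.23 and -5.03). NAC090 and NAC061 were above wild type in both lines and higher still in b'γζ, with differences of 1.5 and 1.01 that did not pass.

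Because W-box binding factors, CRKs and berberine bridge enzyme genes were lower together, the 250 bases upstream of each annotated gene start were read from the TAIR10.1 genome and searched for 9 short motifs on both strands. The W-box was in 27.5% of all 37879 windows, 28.5% of those of listed genes, 42.8% of those of genes that fell and 24.8% of those of genes that rose. It was in 26 of 38 CRK windows (68.4%), 12 of 14 that fell, 2 of 3 that rose and 12 of 21 that did neither. The shares of these small sets were not tested against each other. Of berberine bridge enzyme windows, 10 of 18 had one, 7 of 11 that fell and 3 of the other 7. The WRKY genes had it in 22 of 58 windows (37.9%). Genes of salicylic and pipecolic acid synthesis and signalling, a list with many falls, had it in 6 of 27 (22.2%), below the share of listed genes. The cuticle list had it in 4 of 27 (14.8%). Windows of 3 genes with large falls and of CRK42, which rose, are printed to show the element (capitals, on either strand) in both kinds of gene; each lies immediately upstream of the annotated start and is given in the direction of transcription. The windows are chr1:9131780-9132029 on the minus strand for AT1G26390, and chr4:6971151-6971400, chr4:2238120-2238369 and chr5:16151272-16151521 on the plus strand for CRK32, CRK37 and CRK42. In CRK37 both matches overlap by 1 base.
AT1G26390: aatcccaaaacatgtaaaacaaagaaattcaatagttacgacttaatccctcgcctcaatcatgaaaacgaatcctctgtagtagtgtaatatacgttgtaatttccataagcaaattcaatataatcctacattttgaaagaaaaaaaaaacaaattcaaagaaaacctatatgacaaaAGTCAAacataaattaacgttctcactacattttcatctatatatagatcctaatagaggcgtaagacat
CRK32: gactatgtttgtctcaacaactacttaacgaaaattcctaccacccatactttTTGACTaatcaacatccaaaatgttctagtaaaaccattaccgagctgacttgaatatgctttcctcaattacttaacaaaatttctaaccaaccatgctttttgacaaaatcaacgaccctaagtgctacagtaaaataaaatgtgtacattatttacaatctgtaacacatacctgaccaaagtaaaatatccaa
CRK37: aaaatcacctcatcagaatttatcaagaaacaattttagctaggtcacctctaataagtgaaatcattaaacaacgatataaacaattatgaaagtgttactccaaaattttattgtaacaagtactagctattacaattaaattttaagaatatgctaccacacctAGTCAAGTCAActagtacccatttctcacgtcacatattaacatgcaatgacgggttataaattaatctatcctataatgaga
CRK42: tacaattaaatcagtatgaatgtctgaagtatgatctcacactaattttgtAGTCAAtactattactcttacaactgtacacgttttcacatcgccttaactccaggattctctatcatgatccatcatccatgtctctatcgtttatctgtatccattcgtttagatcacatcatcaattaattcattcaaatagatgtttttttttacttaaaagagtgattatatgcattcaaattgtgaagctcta

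A match to these letters is a description of the window and not evidence of binding. Among the other motifs, the CRT/DRE core (CCGAC), bound by the CBF and DDF group, was in 12% of all windows, 15.3% of those of genes that rose and 8.96% of those of genes that fell. The G-box (CACGTG) was in 5.40%, 9.30% and 6.65%, the ABA-responsive element (ACGTGT or ACGTGG, which overlaps the G-box at ACGTG) in 14.2%, 20% and 20.1%, and the I-box (GATAAG) in 12.7%, 11.9% and 13.5%. The epidermal L1-box (TAAATGTA or TAAATGCA) was in 4.35%, 6.0% and 4.70%, and in 2 of 27 cuticle windows. The flavonoid MYB site (ACCTACC) and the heat shock element were in at most 1.69% of any of these 3 sets. Windows of listed genes, from which the risen and fallen genes come, are the closer background. Their shares were 12.9% for the CRT/DRE core, 7.49% for the G-box, 17.4% for the ABA-responsive element, 12.6% for the I-box and 4.53% for the L1-box.

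Chaperones and disulfide isomerases of the endoplasmic reticulum (ER) are induced when secretory load rises, through factors that bind the ER stress response element (ERSE). Of 23 listed ER folding genes, 16 were lower (69.6%) and 14 fell (60.9%), none rose, and the median difference was -1.39. BIP3, the stress-inducible BiP, had 3.71 in b'γ and 0.29 in b'γζ per the authors' deposited table and fell by 3.42 (SE 0.63 to 0.78, adjusted p = 0.0017). The isomerases PDIL2-2 and PDIL1-2 fell (differences of -2.22 and -2.11), as did the calreticulins CRT3 and CRT1b (-1.91 and -1.67) and calnexin CNX1 (-1.46). BIP1 and BIP2 fell (differences of -1.2 and -1.55), but they are near-identical copies whose reads can be exchanged. The stress sensors were different: BZIP28 differed by -0.36 and BZIP60 by 0.56, the only positive value on the list. ERSE, a split element of CCAAT and CACG, was in 0.57% of all windows, 0.904% of those of listed genes, 1.24% of those of genes that fell and 0.122% of those of genes that rose. On the ER list it was in 5 of the 14 that fell (BIP3, PDIL1-1, CRT1a, PDIL1-2 and HSP90.7) and in none of the 9 other windows, a difference that was not tested. The ABA-responsive element (52.2%) and the G-box (30.4%) were also in many of the 23 windows, beside 17.4% and 7.49% of those of all listed genes. The BIP3 window, chr1:2931851-2932100 on the minus strand, holds 2 copies, both on the reverse strand of the gene, whose fixed letters are in capitals.
BIP3: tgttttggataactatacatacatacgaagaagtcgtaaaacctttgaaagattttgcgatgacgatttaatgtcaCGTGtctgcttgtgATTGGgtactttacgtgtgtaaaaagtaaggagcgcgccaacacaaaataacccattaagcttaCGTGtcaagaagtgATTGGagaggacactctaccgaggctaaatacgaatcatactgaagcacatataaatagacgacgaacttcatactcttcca

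Phenylpropanoid entry enzymes, which turn phenylalanine into the precursor of lignin and flavonoids, fell as a short chain of steps. Of 8 listed genes, 6 were lower (75.0%) and 5 fell (62.5%), and the median difference was -2.61. PAL1, a phenylalanine ammonia-lyase, went from 4.91 in b'γ to 0.30 in b'γζ per the authors' deposited table and fell by 4.61 (SE 0.37 to 1.23, adjusted p = 0.00781). Cinnamate 4-hydroxylase C4H fell by 2.96, and the 4-coumarate:CoA ligases 4CL2 and 4CL1 and the lyase PAL2 fell too (differences of -3.79 for 4CL2 and -2.04 for PAL2). PAL4 was on opposite sides of wild type in the 2 lines, at 4.74 and -1.03 in the authors' deposited table, and its difference of -5.77 (SE 0.54 to 2.51) had an adjusted p of 0.142. The flavonoid-branch ligase 4CL3 did not follow, with a difference of 0.76, and PAL3 was at 0.17.

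Flavonol synthesis downstream of these steps went the other way. Of 11 listed flavonoid genes, 6 were higher (54.5%) and 4 rose (36.4%), 1 was lower, none fell, and the median difference was 1.18. MYB11, MYB12 and MYB111 are related factors that activate flavonol synthesis, and all of them rose. MYB111 stood at -4.42 in b'γ and 0.78 in b'γζ per the authors' deposited table and rose by 5.21 (SE 0.51 to 0.62, adjusted p = 6.57e-08). MYB11 rose by 3.91 and MYB12 by 2.04. Their target FLS1, flavonol synthase, had -2.81 and 0.61 there and rose by 3.42 (SE 0.54 to 0.80). The anthocyanin regulators PAP1 and PAP2 differed by -0.19 and -1.10, neither of which passed.

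Nitrogen remobilization genes include enzymes that make transport forms of nitrogen and carriers of amino acids and nitrate. Of 16 listed genes, 9 were lower (56.2%) and 7 fell (43.8%), 2 were higher (12.5%) and 1 rose (6.25%), and the median difference was -1.33. ASN1, an asparagine synthetase induced in the dark and in senescing leaves, was at 4.55 in b'γ and -1.36 in b'γζ per the authors' deposited table and fell by 5.91 (SE 0.79 to 1.76, adjusted p = 0.0187). Glutamate dehydrogenase GDH2 fell by 2.26 and the cytosolic glutamine synthetase GLN1;1 by 1.63, whereas GDH3 had a difference of -4.31 (SE 0.28 to 1.70) that did not pass and GDH1 differed by 0.09. The amino acid transporters AAP3, LHT1 and AAP4 fell by 2.59, 2.29 and 1.46, and WR3, a partner of nitrate transporters, fell by 2.66. AAP2, an amino acid permease of the vasculature, rose by 1.52 (SE 0.17 to 0.38). Of 18 listed senescence genes, 12 were lower (66.7%) and 7 fell (38.9%). Beside SAG12 and DIN2 these were SAG13, NAP, ORE1, JUB1 and DIN1, while the chlorophyll breakdown genes SGR1, PAO and PPH had differences of -1.96, -0.80 and -0.73 that did not pass.

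All 22 listed autophagy genes had a difference below 0, although ATG18B, at -0.02, was above 0 when measured from the reference genes. Their median was -0.80, 6 were lower (27.3%) and 1 fell (4.55%). ATG8E, one of the ubiquitin-like proteins that mark autophagosomes, fell by 1.53 (SE 0.13 to 0.23), and ATG8H had the lowest value, -2.68, and did not pass. No listed gene of the 26S proteasome, of 50, was past 2-fold, and their median was -0.35. These medians stand against -0.01 over all listed genes and -0.29 over the reference genes. Measured from the reference genes, they were -0.51 for autophagy and -0.06 for the proteasome.

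Salicylic acid and camalexin synthesis are further branches of defence. Of 27 genes of salicylic and pipecolic acid synthesis and signalling, 19 were lower (70.4%) and 12 fell (44.4%), 2 were higher (7.41%) and none rose (median -2.32). FMO1, which makes N-hydroxypipecolic acid, fell by 8.19 to -0.09 in b'γζ per the authors' deposited table, PR1 fell by 7.63, and ICS1, the first enzyme of salicylic acid synthesis, fell by 2.57. The methyltransferase BSMT1 and the glucosyltransferase UGT74F1 were higher, at 1.14 and 1.71, and did not pass. UGT74F2, which also glucosylates salicylic acid, was the only one of the 12 that fell from near wild type, from 0.21 to -1.31 there, by 1.52 (SE 0.18 to 0.23). Of 13 camalexin, indole and cyanogenic genes, 10 were lower (76.9%) and 9 fell (69.2%), with a median of -4.34. The berberine bridge enzyme genes AT1G26380, AT1G26390, AT1G26410 and AT1G26420 make 4 of these 13.

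Jasmonate is another defence hormone, whose JAZ repressors are induced by its own signal. The median of its genes was 1.04 in b'γ and 1.33 in b'γζ per the authors' deposited table. It was likewise above wild type in b'γ sid2 (1.52) and in complemented plants (1.23). Of 31 listed genes 3 (9.68%) were higher, 5 (16.1%) lower and none rose, beside 13.8%, 14.5% and 4.49% over all listed genes. Of the 31, 2 fell (6.45%), beside 6.20%. Both that fell, PR4 and PR3 (by 4.91 and 3.62), encode chitin-binding or chitinase proteins that also respond to ethylene. The repressor genes JAZ5, JAZ8 and JAZ10 were above wild type in both lines, at 2.84 and 3.06, 3.17 and 3.95, and 3.67 and 2.94 in the authors' deposited table, with differences of 0.22, 0.78 and -0.73. JAZ7 and CYP94B3, which inactivates the hormone, had the highest differences, 2.51 and 2.67, and did not pass.

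Plastid genes encoded in the nucleus were nearer to wild type in b'γζ, but few passed the test. Over all listed genes, 13.8% were higher and 4.49% rose. For the ribosomal proteins of the plastid type, all 35 listed genes had a positive difference, from 0.23 to 1.41, with a median of 1.01. Of these, 20 were higher (57.1%) and none rose. Their medians were -0.99 in b'γ and 0.02 in b'γζ per the authors' deposited table. RPL15, with the highest difference (1.41), had an SE of 0.14 to 1.12 and an adjusted p of 0.593. Cytosolic ribosomal proteins had a median of 0.08 over 137 genes, with 1 higher, 2 lower and none called. Of 38 photosystem and antenna genes, 17 were higher (44.7%) and none lower, with a median of 0.94. Only PSBS, needed for the dissipation of excess light, rose (2.63% of the list), by 1.26 (SE 0.13 to 0.42). The largest allowed SE had a median of 2.37 on that list, and the interaction of genotype and leaf part passed the authors' correction for 36 of the 38 genes. For the antenna the genes LHCB2.1 and LHCB2.2 were no nearer to wild type, at -1.81 and -2.35 and at -2.06 and -2.27 in the authors' deposited table. Members of the LHCB and RBCS families are near-identical in parts, so their values are uncertain. The Calvin cycle list had 10 of 20 genes higher and 2 that rose, RBCS1B by 1.83 and EMB3119, a ribose-5-phosphate isomerase, by 1.06. Among 19 tetrapyrrole genes 5 were higher and none rose. The largest difference there, 2.36, was that of the divinyl reductase DVR (SE 0.19 to 1.06).

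Wall-loosening and growth genes were spread in both directions. Expansins and xyloglucan endotransglucosylases act on the wall to allow extension. Of 39 listed, 22 were higher (56.4%) and 7 rose (17.9%), 9 were lower (23.1%) and 2 fell (5.13%), with a median of 1.19. EXPA16 went from -2.48 in b'γ to 1.12 in b'γζ per the authors' deposited table and rose by 3.60 (SE 0.32 to 0.56, adjusted p = 8.38e-06), and EXPA5 rose by 3.11. XTH8 and XTH32 rose by 3.43 and 2.64, while XTH29 and XTH30 fell by 3.57 and 1.43. XTH10 was the lowest at -6.35 and did not pass. Arabinogalactan proteins, glycoproteins of the wall and plasma membrane, had 20 of 36 higher (55.6%), 4 lower (11.1%), 4 that rose (11.1%) and a median of 1.42. AGP41 rose by 4.04 (SE 0.33 to 1.02), and AGP2 had a difference of -4.51 that did not pass. SAUR genes, early auxin-responsive transcripts, had 24 of 44 higher (54.5%) and 8 lower (18.2%) with a median of 1.36. Only 1 rose and 1 fell, which is 2.27% each, beside 4.49% and 6.20% over all listed genes. SAUR9 fell by 6.51 (SE 0.49 to 1.52), and the tandem near-copies SAUR19, SAUR20, SAUR22 and SAUR23, which may share reads, had differences of 2.25, 2.04, 2.21 and 3.23 that did not pass.

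Abscisic acid and cold-response genes gave 12 higher (46.2%) and 3 lower (11.5%) of 26, and 7 rose (26.9%), with a median of 0.69. The dehydration- and cold-induced genes COR15A, RD22, KIN1, RD29A, ERD10 and COR47 rose by 3.33, 2.38, 1.90, 1.35, 1.11 and 1.01. In the authors' deposited table these were all below wild type in b'γ, from -3.89 for COR15A to -1.65 for ERD10, and between -1.12 and -0.34 in b'γζ. Reads of KIN1 may be shared with its near-copy KIN2 (1.94, which did not pass). Their known activators CBF1, CBF2 and CBF3, tandem copies, were between -1.73 and -1.54 in both lines in the authors' deposited table, with differences of -0.10, -0.08 and -0.20 that did not pass. DDF1, a factor of the same family that responds to salt, was the seventh that rose: it had -0.29 in b'γ and 4.84 in b'γζ per the authors' deposited table, and its difference was 5.13 (SE 1.02 to 1.29, adjusted p = 0.00448). Its nearest relative DDF2 had 0.00 and 2.67, with an adjusted p of 0.22. The abscisic acid synthesis gene NCED5 was the lowest, at -6.43 (SE 0.58 to 2.54, not past the test), and NCED3 differed by -0.75.

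Genes that b'γ left near the wild-type level were read separately. Of 7409 genes within 0.5 of wild type in b'γ, 126 were higher and 80 lower in b'γζ, and 57 rose and 36 fell. Each is a smaller share than over all listed genes (13.8% higher, 14.5% lower, 4.49% rose, 6.20% fell). The genes were chosen by their b'γ value, which enters the difference, so smaller shares follow from the choice. Beside DDF1, the largest rises with an annotated product were those of RRTF1, an ERF factor of redox responses (-0.03 in b'γ and 3.78 in b'γζ per the authors' deposited table, difference 3.81, SE 0.78 to 0.92), the heat shock factor HSFA2 (2.87), the oxygenase family gene AT2G30830 (2.65) and MYB95 (2.63). HSFA2, AT2G30830 and MYB95 were also above wild type in 2 other lines of the authors' deposited table, b'γ sid2 (2.36, 3.47 and 1.40) and the complemented line (2.93, 2.15 and 1.14), so b'γ was the exception there. DDF1 and RRTF1 were highest in b'γζ, with 1.01 and 1.05 in b'γ sid2 and 1.06 and 1.36 in complemented plants. Neither passed the largest-error test against every other line.

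The lowest of these genes included neighbours. MRD1 (AT1G53480) was at -0.43 in b'γ and -7.28 in b'γζ per the authors' deposited table and fell by 6.85 (SE 0.27 to 0.30). HEI10 (AT1G53490), next to it and a factor of meiotic crossing-over, went from -0.10 to -4.36 there and fell by 4.26 (SE 0.14 to 0.16). Both were also far below wild type in the complemented line, at -6.35 and -4.09, and near it in b'γ sid2, at -0.16 and -0.05, in the authors' deposited table, so low values were not limited to the line with the B'ζ lesion. The clock gene PRR5 fell by 2.24 (SE 0.11 to 0.12). It was at 0.42 in b'γ, -1.82 in b'γζ, -2.90 in b'γ sid2 and -1.51 in complemented plants by the authors' deposited table. PRR9 fell by 1.53 and RVE2 rose by 1.37, and the other 12 of 15 listed clock genes included RVE1 at -2.02, which did not pass, and GI at 0.01. The time of harvest is not in the labels, and its part was not tested.

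In 3 genes b'γζ was higher than every other line, and in 3 it was lower, by at least 2-fold and past the largest-error test against b'γ, b'γ sid2, the complemented line and wild type alike (0.0165% of listed genes in each direction). One of them is B'ζ. AT3G22235, an uncharacterized protein, had -3.39 in b'γζ and between -0.14 and 0.73 in the other mutants in the authors' deposited table, and it fell by 4.12 against b'γ (SE 0.36 to 0.41, adjusted p = 1.02e-09). PCC1 (AT3G22231), named for its control by pathogens and the clock, had -3.17 in b'γζ and between -0.11 and 0.46 elsewhere, and it fell by 3.58 (SE 0.32 to 0.36). WRR4, an immune receptor gene for white rust resistance, had 1.69 against 0.49 to 0.64 in the other lines there and rose by 1.2 (SE 0.22 to 0.27). The transposable element gene AT3G33076 rose by 3.70 and AT5G28335, which has no annotation in the file, by 4.35.

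**Figure D4:**
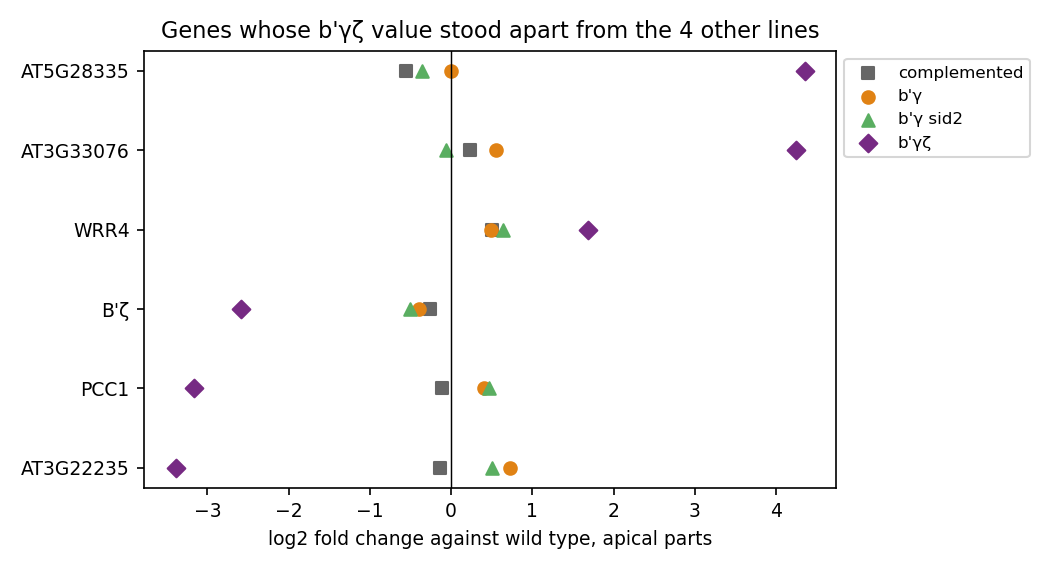
Log2 fold changes against apical wild type (x axis) of the 6 genes whose b'γζ value differed from b'γ, b'γ sid2, the complemented line and wild type in 1 direction. Squares are the complemented line, circles b'γ, triangles b'γ sid2 and diamonds b'γζ; the other 3 lines lie between -0.55 and 0.73 for every gene, while b'γζ lies at -2.59 or below for 3 genes and at 1.69 or above for 3.

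PCC1 and AT3G22235 lie close to B'ζ. They lie 223 and 232 kb from it, at higher coordinates, on chromosome 3 (PCC1 at 7845823 to 7846833 and AT3G22235 at 7854419 to 7855814, both on the minus strand, TAIR10.1). They belong to a tandem group of small related genes, so their counts may share reads. The neighbouring genes were mixed. AT3G22232 was at -2.52 in b'γ and 1.07 in b'γζ and AT3G22237 at -2.77 and 1.35 in the authors' deposited table, with differences of 3.60 and 4.12 whose allowed SE was wide (0.75 to 5.57 for AT3G22237). Both missed the test. AT3G22240, the next listed gene, had a difference of -2.30, which did not pass either. The 80 listed neighbours of B'ζ, 40 on each side, had a median difference of -0.15, with 15 higher, 16 lower, 3 that rose and 5 that fell, against 13.8%, 14.5%, 4.49% and 6.20% over all listed genes. The 80 neighbours of B'γ had a median of 0.01. A stretch of 164 listed genes on chromosome 5 was raised in both lines alike (medians 0.96 in b'γ and 1.0 in b'γζ per the authors' deposited table) and had a median difference of 0.02.

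**Figure D5:**
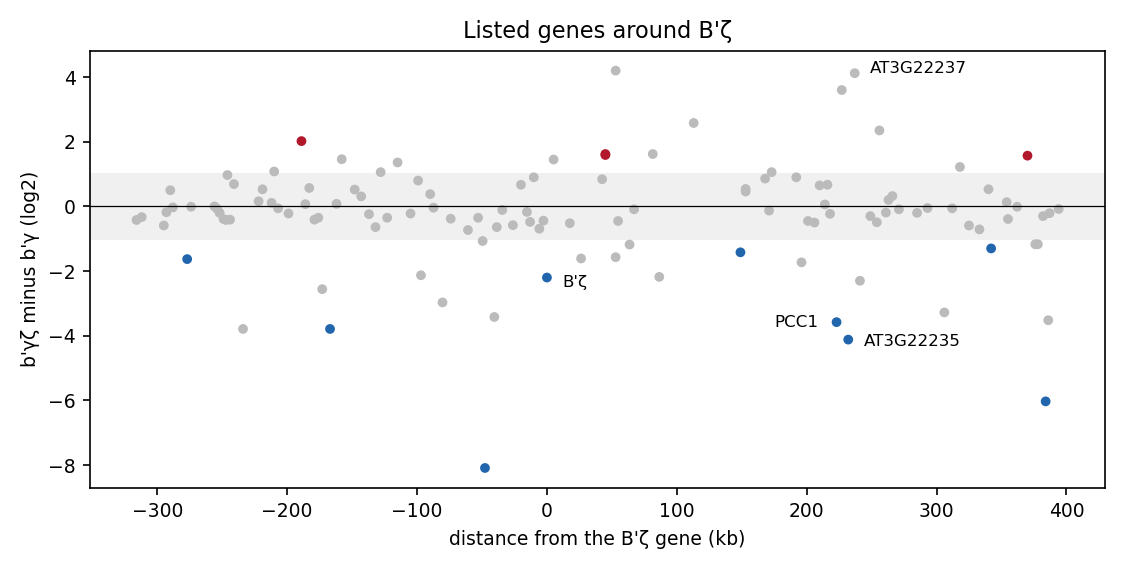
Difference of b'γζ minus b'γ in log2 units for each listed gene around B'ζ, by the distance of its position from the B'ζ gene in kb. Blue points fell, red points rose, grey points did neither, and the band is within 2-fold. PCC1 and AT3G22235 sit next to genes with differences of 3.60 and 4.12, and genes between them and B'ζ spread on both sides of 0.

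Running medians over 31 neighbouring listed genes showed stretches of lower values elsewhere. The lowest were centred on AT1G51760 on chromosome 1 (-1.06), AT5G39000 on chromosome 5 (-0.98) and AT4G23200, which is CRK12 in the kinase cluster, on chromosome 4 (-0.89). The highest, 0.74, was centred on AT1G29460 on chromosome 1. In the plot of the B'ζ surroundings, some pairs of points nearly coincide in position. AT3G21755 lies with the glycosyltransferase HYR1, with differences of 1.59 and 1.62, and both rose. AT3G21781 lies with UGT71B6, at 4.20 and -1.57. Both of these pairs overlap in the genome. How strand was used in counting is not given in the sources used here, so reads from the partners cannot be told apart. AT3G22070 and AT3G22072, at 0.46 and 0.54, also lie together at 153 kb, and their overlap was not examined.

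A few genes lay on opposite sides of wild type in the 2 mutants, at least 2-fold in each. PP2-A5 was at -2.69 in b'γ and 2.29 in b'γζ per the authors' deposited table (difference 4.98, SE 0.70 to 0.93, adjusted p = 0.000155) and ERF025 at -2.28 and 2.55 (difference 4.83, adjusted p = 0.000205). The dehydrogenase family gene SDR4 was at 5.62 and -1.28 there and fell by 6.90 (SE 0.58 to 1.15). SOB5, a gene linked to cytokinin levels, and the senescence nuclease BFN1 also changed side, at -2.52 and 1.47 and at 4.98 and -1.30, without passing the test.

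Other genes were as far from wild type in b'γζ as in b'γ. The jasmonate-inducible oxygenase family gene AT2G38240 had 3.8 in b'γ and 3.67 in b'γζ per the authors' deposited table, with 6.17 in b'γ sid2 and 4.02 in complemented plants. MAPKKK21 had 3.36 and 3.40, the heat shock protein Hsp70-2 3.03 and 3.10, ERF13 3.15 and 2.99, and the calmodulin-like CML40 2.95 and 2.98 there. In b'γ sid2 and complemented plants MAPKKK21 had 2.07 and 2.59 there, and Hsp70-2 2.47 and 2.92. In the same 2 lines ERF13 had 3.06 and 2.71, and CML40 0.88 and 1.37. AT4G00250, a storekeeper-related factor, had 3.54 in b'γ and 3.95 in b'γζ, with 3.53 in b'γ sid2 and 0.24 in complemented plants. AT1G06002, annotated as a possible antisense partner of AT1G06000, was at -3.15 and -3.22, with -3.03 in b'γ sid2 and -2.98 in complemented plants; its reads cannot be told apart from those of its partner without the strand. These differences were smaller than the SE or close to it (0.41 with an SE of 0.39 to 0.55 for AT4G00250).

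Markers of other cell types were spread. Of 5 phloem markers SEOR1, a protein of sieve element filaments, rose by 1.97, and SUC2, APL, SWEET11 and SWEET12 were within 2-fold. The myrosin cell enzymes TGG1 and TGG2 had differences of 2.02 and 1.84 that did not pass. All 3 mesophyll markers were positive, from 0.80 to 1.33, none passed, and 4 dividing cell markers were within 2-fold. The floral gene SEP3 rose by 3.77, from -4.45 to -0.68 in the authors' deposited table, and PI was at 4.58 and 0.11. Levels are not in the file, so whether any marker is at or near 0 was not examined. The part of cell composition in the differences was not tested.

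Size calls depended on the zero point. Of 10 reference genes, 8 were listed, with a median difference of -0.29, from -0.91 for the ubiquitin gene UBQ10 to 0.50 for the actin gene ACT2, and PP2AA3, itself a PP2A subunit, is one of them. With the difference measured from that median, the median of all listed genes became 0.28. The share of higher genes among those past 2-fold moved from 48.8% to 64.9%, and the share that rose among the called from 42.0% to 66.2%. Of the 43 lists, 10 then no longer had a negative median: the reference genes, by construction, and PP2A subunits, NAC factors, transposable element genes, clock genes, sugar transporters, UDP-glycosyltransferases, cytochromes P450, histones and phloem markers, whose medians had been between -0.20 and -0.01.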

How the data were processed

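RNA of 50 pools of leaf parts was sequenced, with 5 pools in each of 10 groups, and the groups follow the line and leaf part in the labels. Libraries were made with a stranded mRNA kit, per the labels' protocols. bcl2fastq and DESeq were used and the build was TAIR10, per the submitters' processing notes; versions, aligner and counter are not given in the sources used here. The authors' deposited table of 18231 genes holds 4 columns of log2 fold changes, each of a line's apical part against that of wild type, and the deposited p-value of genotype, leaf part and their interaction, corrected and uncorrected, in 6 columns. The header names no log base. Base 2 was read from low genes, where 56 pairs of values differed by 0.2, which is 1 doubling in 1 of 5 libraries, and 2 pairs each by the natural-log and base-10 steps. Depth is unknown.

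The reading of a size limit and a test replaced a fit to libraries, since the table has no value per library. The largest-error test turned the uncorrected genotype and interaction p-values into F values (4 and 40 degrees of freedom), bounded the residual variance of each gene with its 4 apical fold changes and line means within 20 log2 units, and tested the contrast with the largest variance, adjusted by Benjamini-Hochberg over the 25801 genes that the authors' correction implies. The bounds hold only if those p-values come from such F tests on the same log values as the fold changes, which was not established. Among 159 genes at 0 in 3 mutant lines, the genotype and interaction F values were equal within 2% for 69. Equality would follow only where the basal parts are level as well, and basal values were not available. The bounds were tested on simulated data with 1 SD per gene in all groups, so unequal spread between groups was not simulated. Floor genes are those with an identical lowest value in 2 or more of the mutant lines (within 1e-06), and 379 are listed. A tie of 1 mutant line with wild type alone was not counted. Genes were named by rule: all listed PP2A subunits, the 12 largest rises and falls, the 8 highest and 8 lowest genes near wild type in b'γ, the 5 largest in each direction among genes with opposite changes, 8 that differed alike in both lines, the genes apart from all other lines, and the 3 largest of every list in which 3 or more genes changed; other members are named where a group is described. The members, lists and tests were chosen with earlier results of these data known. Sequences and positions are from RefSeq TAIR10.1; 18153 of 18231 identifiers matched. Alternatives were other size limits, stricter p-values, centring, leaving out floor genes or the chromosome 5 stretch, and an equal-parts variance, which assumes that lines differ as much in basal as in apical parts. Python 3.11.15, numpy 2.4.6, pandas 2.3.3, SciPy 1.17.1 and matplotlib 3.10.9 were used.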

Additional observations from a re-analysis of the deposited data

How the results depend on the processing

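Counts moved with the size limit and the error. By size, 4600 genes were higher and 4191 lower at 1.5-fold, and 582 and 1275 at 4-fold. With the test, 1262 rose at 1.5-fold, and 259 rose and 671 fell at 4-fold. At an adjusted p under 0.01, 500 rose. With the variance that follows from equal apical and basal differences, 2369 rose and 2528 fell, and 10 genes of b'γζ stood apart from the 4 other lines instead of 6; this last alternative was chosen after seeing the data. Measured from the reference genes, 3834 genes were higher and 1710 rose, and the median difference of the 80 neighbours of B'ζ became 0.14, an alternative also chosen after seeing the data. Leaving out floor genes or the chromosome 5 stretch, a corrected genotype p under 0.01 and centring on all listed genes kept every such count within 1.5 times. Of 155 named genes, 83 rose or fell, and none of these changed sign or lost its call when measured from the reference genes. Of the others, 11 with small differences turned from negative to positive there: PP2AA3 (0.01), PP2A-4 (0.06), PP2A-1 (0.10), PP2A (0.16), B'η (0.17), PP2A-3 (0.22), RCN1 (0.23), AT5G25510 (0.25), AT2G38240 (0.16), AT1G06002 (0.21) and ERF13 (0.12). B'ε, CER1, AT1G23410 and XTH10 gained a call. With the equal-parts variance 46 named genes gained a call and none lost one. No paired analysis was possible because the table has no values per library, so neither a replicate block nor the leave-one-out fits could be run. The table gives no depth, so no detection limit was computed.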

Other observations

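Some gene groups are left to describe as values. Pectin enzymes, 55 polygalacturonases and pectinesterases, were split evenly, with 13 higher and 13 lower (23.6% each), and 7 that rose and 7 that fell (12.7% each). Over all listed genes these shares were 13.8%, 14.5%, 4.49% and 6.20%. Those that fell furthest were ADPG2, ADPG1 and AT2G43870 (differences of -10.48, -8.62 and -5.79, each to the floor) and the pectinesterase AT2G45220 (-10.22). ADPG1 and ADPG2 act in organ separation. AT5G19730, AT5G64640 and PG2 rose by 2.38, 2.11 and 1.91. Glutathione S-transferases, which conjugate electrophiles, had 16 of 43 lower (37.2%) and 12 that fell (27.9%), with GSTU3, GSTU12 and GSTU11 at -9.52, -7.76 and -6.56. GSTU26 and GSTU5 rose (4.65%), by 2.74 and 1.70. Of 144 cytochrome P450 genes, 33 fell and 12 rose, and of 50 UDP-glycosyltransferases 7 fell and 2 rose. Of 17 aquaporins PIP2;8 and PIP2;6 rose (11.8%), by 2.97 and 1.26, and PIP2;2 fell (5.88%), by 1.34.

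Among sugar transporters, the proton-coupled hexose importers STP4, STP13 and STP1 fell (differences of -1.39, -1.38 and -1.13), and SWEET1 rose by 1.12. SWEET2 had a difference of -4.40 that did not pass the largest-error test. Of 40 listed histone genes HTA13 alone was called, and it fell by 1.11. Transposable element genes had 33 higher and 48 lower of 234, with 9 that rose and 9 that fell, which is 14.1% higher, 20.5% lower and 3.85% in each direction with the test. The shares over all listed genes are 13.8% higher, 14.5% lower, 4.49% that rose and 6.20% that fell.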
